A study of Homo sapiens with 4 samples.

Results

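The enzymes described here build the amino acid serine and pass its carbon units to folate: PHGDH, PSAT1, PSPH, SHMT1, SHMT2, MTHFD1, MTHFD1L, MTHFD2 and ALDH1L2. They were followed in SCC-9 cells, an established line from a squamous cell carcinoma of the tongue. In the mimic group the cells received miR-585-5p mimics, synthetic RNA that acts as an excess of that microRNA, and in the miR-NC group a control small RNA, each at 30 nM. Cells were transfected 24 hours after seeding and collected 36 hours after transfection, and total RNA was hybridised to Affymetrix arrays, 2 per group. A gene was taken through its probe sets (groups of short probes against its transcripts) whose platform annotation gives that symbol and no other. All 9 genes had such probe sets, 33 in all, of 18132 genes and 44988 probe sets with 1 symbol on the array. Nothing in the labels says that the 2 arrays of a group came from separate cultures, so p-values reflect no more than how far these arrays differ within a group, which may be technical.

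PHGDH, PSAT1 and PSPH act in sequence in the cytosol and turn a glycolytic intermediate, phosphoglycerate, into serine. SHMT2 in mitochondria and SHMT1 in the cytosol then split serine into glycine and a carbon unit carried by folate, which MTHFD2, MTHFD1L and ALDH1L2 in mitochondria and MTHFD1 in the cytosol oxidise, reduce or release as formate. The carbon units are used to make purines, thymidylate and, through methionine, methyl groups, and the transcription factor ATF4 is known to induce several of these genes when amino acids are short.

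After transfection of the mimic the serine synthesis genes rose together, PSAT1 2.69-fold, PHGDH 2.38-fold and PSPH 1.54-fold. The mitochondrial folate genes MTHFD1L (1.73-fold) and MTHFD2 (1.38-fold) also rose, SHMT2 by a small margin (1.15-fold), and the cytosolic MTHFD1 fell to 0.696 of its miR-NC level. SHMT1 did not pass the test, and ALDH1L2 was not above background. With limma and an adjusted p of 0.05, 6 of the 9 genes passed as higher and 1 as lower in mimic cells, where 28.1% of the 14122 genes tested passed as higher, 26.9% as lower and 55.0% in either direction. Both mimic arrays lay above both miR-NC arrays for 6 of the 9 and below them for 2, where this held for 36.5% and 42.9% of all genes tested. The median log2 change of the 9 was 0.46, against -0.06 over all genes tested. Values here are intensities as deposited, on a linear scale, and changes are log2 differences, mimic minus miR-NC, with the SE of the fit.

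These directions hold on the deposited scale, which brings the arrays close to a common distribution, with medians from 30.6 to 31.3. The poly(A) spikes, which are bacterial RNAs put into each sample ahead of the labelling, read 0.33 higher (log2) on the mimic arrays. Scaled to them, every change moves down by that amount, 1745 genes were higher and 8398 lower, against 3966 and 3802 on the deposited scale, and the higher share of calls was 17.2% instead of 51.1%. On that scale PSAT1 (1.09), PHGDH (0.91), MTHFD1L (0.45) and PSPH (0.29) still passed as higher, MTHFD2 (0.13) did not pass, SHMT2 was at -0.13 and did not pass, and MTHFD1 (-0.86) and SHMT1 (-0.39) passed as lower. ALDH1L2, at background on every array, also passed as lower there and in a fit without a mean-variance trend (limma adjusted p = 0.0254). The median of all genes was -0.39 with the poly(A) spikes. GAPDH read by 3' over 5' probes, a ratio that grows as RNA degrades, was 1.11 for each mimic array, against 1.22 and 1.16 on the miR-NC arrays, while the same ratio for ACTB was 14.3 for each mimic array, against 14.4 and 13.8 on the miR-NC arrays. Their part in these results was not tested. Of the squamous epithelial markers with a probe set here, KRT5, KRT14, CDH1 and EPCAM were above background on all arrays, KRT14 1.95-fold higher and CDH1 2.39-fold lower in mimic cells, while the leukocyte marker PTPRC, the endothelial marker CDH5 and the fibroblast markers COL1A2, COL3A1 and LUM were at background on all 4. CD68, VWF and PDGFRB, from the same marker lists, were above it on all 4, PECAM1 on 1 mimic and 2 miR-NC arrays and CD3E on 1 miR-NC array. In bulk RNA, fewer cells of a kind and less RNA per cell cannot be told apart.

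**Figure D1:**
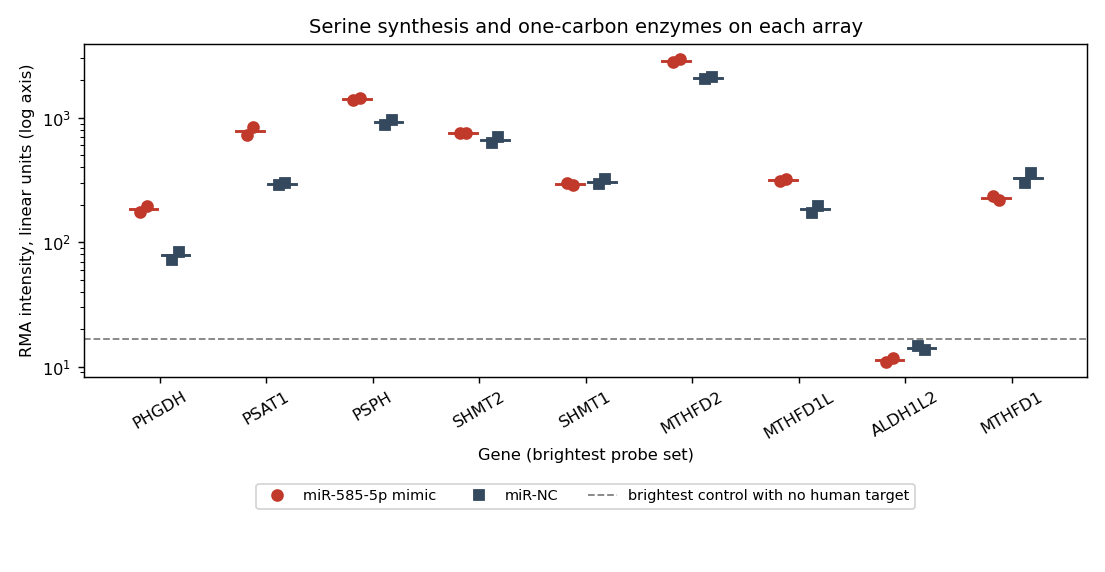
Intensity of the brightest probe set of each gene on a log axis, with 2 mimic arrays (red circles) left of 2 miR-NC arrays (dark squares), bars at the group means, and a dashed line at the brightest control probe set with no human target (16.8). On the deposited scale the mimic arrays lie above the miR-NC arrays for PHGDH, PSAT1, PSPH, SHMT2, MTHFD2 and MTHFD1L and below them for MTHFD1, the groups overlap for SHMT1, and ALDH1L2 lies under the line.

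The small RNA supplied carries the name of the mature hsa-miR-585-5p, whose RefSeq sequence is shown because its seed, bases 2 to 8 in capitals, is the part that pairs with target transcripts. Its gene lies on the minus strand of chromosome 5 in GRCh38.p14, with the mature bases at chr5:169263649-169263670. Transcript sequences were not used here, so sites for this seed in the 9 genes were not looked for.
hsa-miR-585-5p: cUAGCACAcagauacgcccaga

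Upstream sequence is shown for the 4 genes with the largest changes among those matched to a window, so that the shared and unshared letters can be seen. RefSeq windows in GRCh38.p14, from 250 bases before to 50 after an annotated start, matched 6 of the 9 genes, all but PSPH, SHMT2 and ALDH1L2. Of 4 motifs searched on both strands, capitals mark 3: CCAAT, the box bound by NF-Y, CACGTG, the E-box bound by MYC and related factors, and TGATGNAA, the form of the element bound by ATF4 with C/EBP factors. None of the marked matches overlapped another. PHGDH is at chr1:119711684-119711983, PSAT1 at chr9:78296875-78297174, MTHFD1L at chr6:150866236-150866535 and MTHFD1 at chr14:64388103-64388402, all on the plus strand. For MTHFD1L this is 1 of 4 annotated windows.
PHGDH: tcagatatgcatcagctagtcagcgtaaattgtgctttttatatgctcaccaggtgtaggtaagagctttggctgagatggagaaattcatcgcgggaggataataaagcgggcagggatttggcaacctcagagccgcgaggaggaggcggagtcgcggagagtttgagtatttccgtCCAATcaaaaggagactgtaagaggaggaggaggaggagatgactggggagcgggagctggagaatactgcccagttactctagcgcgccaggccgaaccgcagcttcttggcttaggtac
PSAT1: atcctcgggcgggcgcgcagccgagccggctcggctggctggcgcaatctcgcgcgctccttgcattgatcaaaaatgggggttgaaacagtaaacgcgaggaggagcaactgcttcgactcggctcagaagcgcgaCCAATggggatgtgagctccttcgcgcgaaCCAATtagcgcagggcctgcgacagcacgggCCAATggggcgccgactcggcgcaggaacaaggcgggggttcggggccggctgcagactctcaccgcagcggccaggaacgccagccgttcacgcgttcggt
MTHFD1L: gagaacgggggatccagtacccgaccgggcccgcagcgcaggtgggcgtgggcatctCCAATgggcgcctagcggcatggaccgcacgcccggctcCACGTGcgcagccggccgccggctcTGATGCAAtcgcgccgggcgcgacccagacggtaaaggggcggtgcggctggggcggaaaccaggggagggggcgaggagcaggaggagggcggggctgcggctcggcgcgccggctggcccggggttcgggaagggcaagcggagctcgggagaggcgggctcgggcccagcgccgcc
MTHFD1: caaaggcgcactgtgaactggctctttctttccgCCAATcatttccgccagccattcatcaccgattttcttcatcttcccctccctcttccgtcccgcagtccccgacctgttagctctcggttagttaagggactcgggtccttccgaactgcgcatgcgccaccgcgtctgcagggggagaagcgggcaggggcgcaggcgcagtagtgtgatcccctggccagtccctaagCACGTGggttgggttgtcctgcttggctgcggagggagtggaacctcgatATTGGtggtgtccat

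A CCAAT box was present in a window of each of the 6 genes with one, SHMT1 and MTHFD1 included, and in 34.6% of the 35116 windows in the table. PSAT1 held 3 copies, starting 113, 83 and 52 bases before the start, and PHGDH held 1, at 71 bases. TGATGNAA was found in MTHFD1L alone of the 6, as TGATGCAA starting 129 bases before the start shown, and in 3.6% of all windows. The E-box was found in MTHFD1L and MTHFD1 and in 7.3% of all windows. The motif not marked, the GC box GGGCGG bound by SP factors, was found in MTHFD1L, PSAT1 and SHMT1 and in 45.0% of all windows. These are matches of letters, and binding was not measured. The CCAAT box was present in genes that rose, fell or did not pass, and the E-box in a gene that rose and a gene that fell. The GC box was in genes that rose or did not pass, and TGATGNAA only in MTHFD1L, which rose.

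The first enzyme of serine synthesis, PHGDH, which oxidises phosphoglycerate, read 176 and 196 on the mimic arrays, against 72.7 and 84.2 on the miR-NC arrays. The lower mimic array was thus above the higher miR-NC array, and the log2 change was 1.25 ± 0.10 (limma adjusted p = 2.47e-06, n = 2 per group). Of all genes tested, 97.1% had a lower log2 change. This rests on a single probe set. Another probe set carries the symbols of both PHGDH and MZT2B and so lies outside the rule, and it read 3937 and 3941 on the mimic arrays, against 4544 and 4369 on the miR-NC arrays. Which of those 2 genes it follows was not tested.

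PSAT1, the aminotransferase of the second step, read 728 and 851 on the mimic arrays, against 287 and 298 on the miR-NC arrays. The groups were far apart, and the log2 change of 1.43 ± 0.08 (limma adjusted p = 1.36e-07, n = 2 per group) was the largest among the 9 genes, with 98.1% of all genes tested below it. Its 8 probe sets did not move alike. In the fit over 31752 probe sets, 6 passed as higher, where 27.2% of all probe sets did, and 2 did not pass.

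The largest changes within PSAT1 were those of probe sets 11742992_s_at and 11751230_a_at. The first read 474 and 585 on the mimic arrays, against 113 and 157 on the miR-NC arrays, a change of 1.98 ± 0.14 (limma adjusted p = 1.82e-07, n = 2 per group). The second read 105 and 113, against 27.4 and 36.0, a change of 1.80 ± 0.13. On both, the mimic arrays lay clear of the miR-NC arrays. The 2 that did not pass were 11747348_a_at, with 92.5 and 87.4 on the mimic arrays against 93.3 and 72.0 on the miR-NC arrays, and 11741479_a_at, with 82.0 and 84.5 against 73.1 and 66.3. The groups overlapped on the first of these, at 0.13 ± 0.12 (adjusted p = 0.393), and on the second they stood apart by less than the test needs, at 0.26 ± 0.10 (adjusted p = 0.0558). With the mean of all 8 the change of PSAT1 was 1.12, and with its brightest probe set that carries neither an s nor an x suffix, which mark probes shared between transcripts or similar to other sequences, it was 1.28. RefSeq lists 4 PSAT1 pseudogenes, and whether they add to any of these signals was not tested.

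PSPH, the phosphatase that releases serine, read 1392 and 1441 on the mimic arrays, against 877 and 966 on the miR-NC arrays, a change of 0.62 ± 0.06 (SE, n = 2 per group, limma adjusted p = 6.43e-06). A second probe set, 11754138_s_at, read 37.9 and 43.6, against 25.5 and 26.9, and moved by nearly the same amount, 0.63 ± 0.13. The third was under 5 units on all arrays, at background, and was not tested. With the mean of the 3 the change was 0.30. All 3 carry an s or x suffix and RefSeq lists 1 PSPH pseudogene, so no value of PSPH is free of probes that other transcripts may share.

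Both forms of serine hydroxymethyltransferase were measured well above background. The mitochondrial SHMT2 read 760.1 and 759.3 on the mimic arrays, against 625 and 696 on the miR-NC arrays, a change of 0.20 ± 0.06 (limma adjusted p = 0.0195, n = 2 per group). The groups stood apart, and its 4 probe sets all passed as higher, within a narrow range of log2 changes of 0.18 to 0.22. The gene lost its call without mimic replicate 1 (0.20, adjusted p = 0.124), mimic replicate 2 (0.20, adjusted p = 0.126) or miR-NC replicate 1 (0.13, adjusted p = 0.105), and kept it without miR-NC replicate 2 (0.28). The cytosolic SHMT1 read 302 and 288 on the mimic arrays, against 292 and 320 on the miR-NC arrays. The groups overlapped and the change was -0.05 ± 0.07 (adjusted p = 0.580). None of its 5 probe sets passed, and their log2 changes lay between -0.23 and -0.05.

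MTHFD2, which oxidises the folate carbon unit in mitochondria and is low in most adult tissues, read 2808 and 2966 on the mimic arrays, against 2062 and 2127 on the miR-NC arrays. The change was 0.46 ± 0.05 (SE, n = 2 per group, limma adjusted p = 9.96e-06), with both mimic arrays above both miR-NC arrays. All 5 of its probe sets passed as higher, but with unequal sizes, from 0.20 ± 0.06 for 11745870_a_at to 0.58 ± 0.07 for 11744002_s_at, and 3 of them are small enough to lie below 0 with the poly(A) spikes. RefSeq lists 7 MTHFD2 pseudogenes, and whether they add to these signals was not tested.

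MTHFD1L, which releases formate from the mitochondrial folate, read 311 and 324 on the mimic arrays, against 173 and 196 on the miR-NC arrays, a change of 0.79 ± 0.08 (SE, n = 2 per group, limma adjusted p = 1.29e-05). Its 4 probe sets all passed as higher and all stood apart between the groups. The brightest had the smallest change, and the largest was that of 11728985_s_at, with 314 and 306 on the mimic arrays against 135 and 154 on the miR-NC arrays (1.10 ± 0.09). The mean over the 4 was 0.93. ALDH1L2, which oxidises formyl-folate in mitochondria, read 11.0 and 11.9 on the mimic arrays, against 14.6 and 13.7 on the miR-NC arrays. These lie under the brightest control probe set with no human target, 16.8, as does its second probe set, so no fold is given.

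MTHFD1, the cytosolic enzyme that takes up formate and interconverts the folate forms, was the member that fell. It read 237 and 221 on the mimic arrays, against 297 and 363 on the miR-NC arrays. The mimic arrays were below both miR-NC arrays, and the change was -0.52 ± 0.10 (limma adjusted p = 8.26e-04, n = 2 per group). The miR-NC arrays differed more between themselves than the mimic arrays, and the value ran from -0.67 without miR-NC replicate 1 to -0.38 without miR-NC replicate 2, passing in both. It rests on 1 probe set, and 12.1% of all genes tested had a lower log2 change.

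Over all 33 probe sets of the 9 genes, 31 were bright enough to be tested, 22 passed as higher and 1 as lower, where 27.2% and 24.2% of the 31752 tested probe sets did. Of the 33, the mimic arrays lay above the miR-NC arrays on 24 and below them on 5, and the groups overlapped on 4. Those above include 11740521_a_at of ALDH1L2 and those below 11763252_x_at of PSPH, both too dim to be tested. Of tested probe sets on the whole array, 36.5% lay above and 40.6% below. Probe sets of a gene are not replicates of each other. Without mimic replicate 2 the number that passed was 15. Scaled to the poly(A) spikes, 13 passed as higher and 7 as lower. In that scaling 12.4% of all genes tested passed as higher and 59.5% as lower. The share over all probe sets was not taken there.

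**Figure D2:**
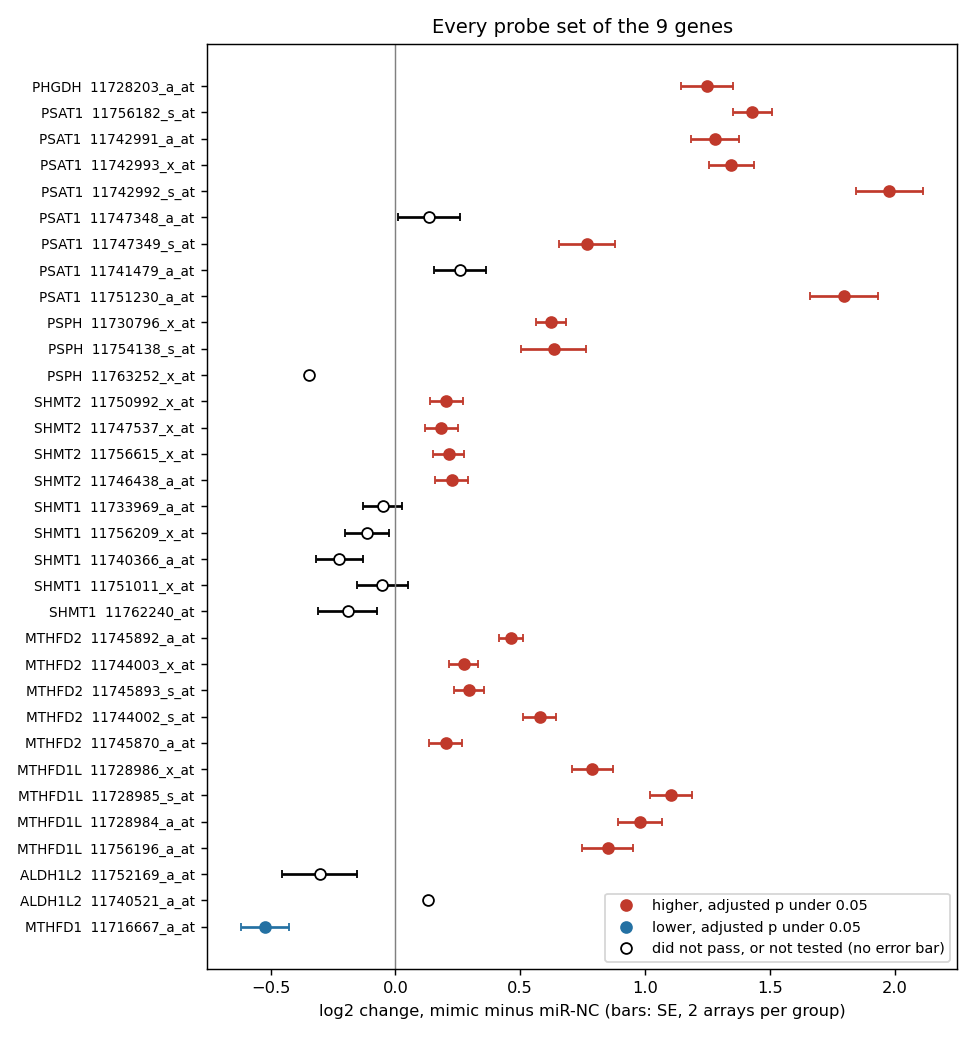
Log2 change, mimic minus miR-NC, of each of the 33 probe sets on the deposited scale, with SE bars from 2 arrays per group. Filled points passed an adjusted p of 0.05 and open points did not or were not tested. PSAT1 spreads from 0.13 to 1.98 and MTHFD1L from 0.79 to 1.10, the 4 SHMT2 probe sets keep close together, and the SHMT1 points are open. With the poly(A) spikes all points move down by 0.33. Those between 0 and 0.33, which include the 4 of SHMT2 and 3 of MTHFD2, then lie below 0.

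The balance between the compartments was followed on each array as the log2 intensity of the mitochondrial form minus that of the cytosolic form. Only the difference between groups can be read, since the level of each probe set has its own scale, and a shift of a whole array cancels in it. MTHFD1L minus MTHFD1 was 0.39 and 0.56 on the mimic arrays, against -0.78 and -0.89 on the miR-NC arrays, a difference of 1.31. SHMT2 minus SHMT1 was 1.33 and 1.40 on the mimic arrays, against 1.10 and 1.12 on the miR-NC arrays, a difference of 0.26. In both pairs the groups were apart, in the same direction. An exact two-sided permutation test over 2 against 2 arrays gives p = 0.333 for each, the smallest it can give. Averaging all probe sets of a gene gave differences of 1.45 and 0.33.

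**Figure D3:**
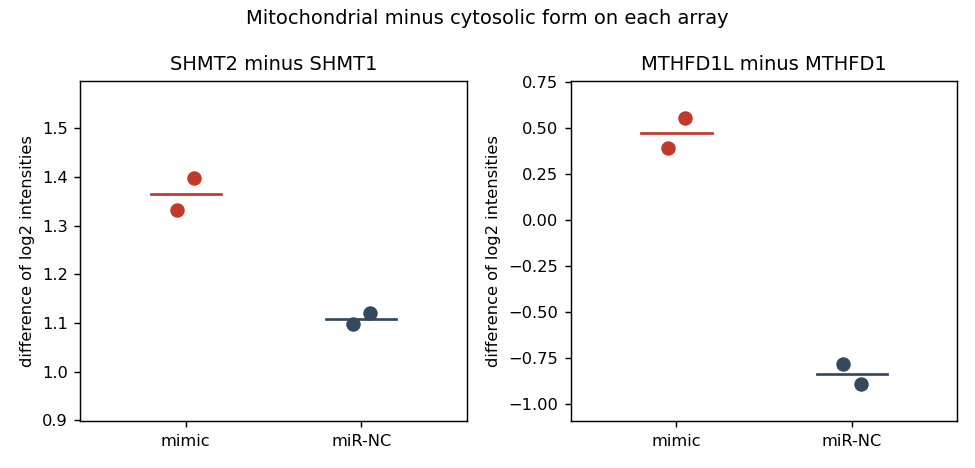
Mitochondrial minus cytosolic form, as a difference of log2 intensities on each array, for SHMT2 and SHMT1 and for MTHFD1L and MTHFD1, with mimic arrays left and miR-NC arrays right and lines at the group means. The panels have their own axes. Mimic arrays lie higher in both, by 0.26 for the SHMT pair and by 1.31 for the MTHFD pair.

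The 9 genes moved by ordinary to large amounts for these arrays. At least 2-fold higher with an adjusted p under 0.05 were 4.76% of all genes tested, PHGDH and PSAT1 among them. The tested genes nearest to a member were sought by the distance of log2 values centred on each gene over the 4 arrays. They were INHBA, SUCO and ENC1 for PSAT1 (0.02 to 0.06) and STRADB, FAM199X and ETV5 for PHGDH (0.02 to 0.03). For PSPH they were MTSS1, WDR3 and DTYMK, for SHMT2 ZNF274, KIN and FCHSD2, and for MTHFD2 PRPF18, YWHAQ and API5. With 4 arrays such likeness is common: 89 genes lay within a distance of 0.2 of PSAT1, 142 of PHGDH and 2198 of SHMT2.

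**Figure D4:**
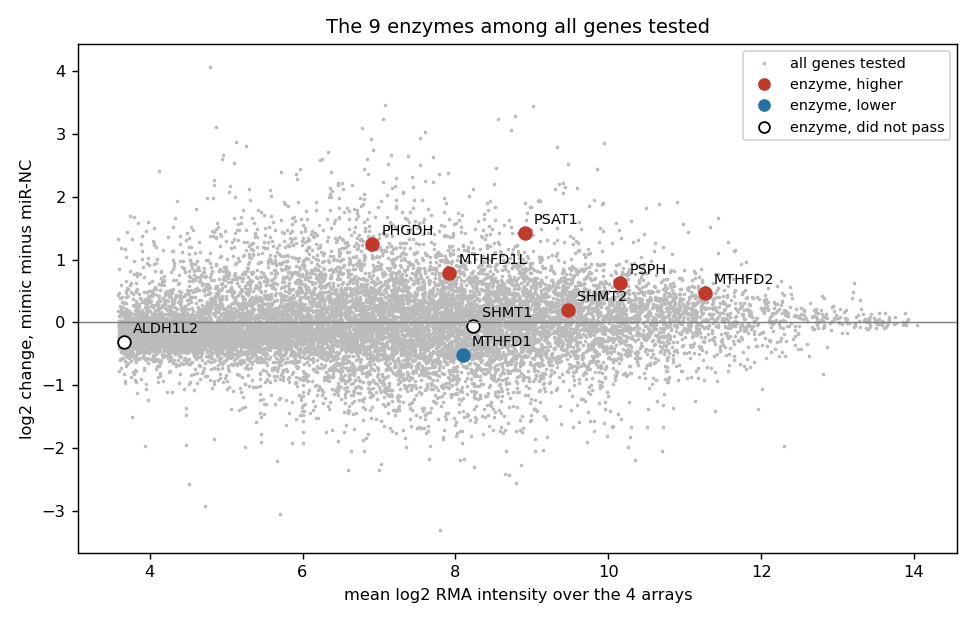
Log2 change, mimic minus miR-NC, against the mean log2 intensity over the 4 arrays for all 14122 genes tested (grey) and the 9 enzymes (labelled; red higher, blue lower, open not passed), on the deposited scale. PSAT1 and PHGDH lie above 98.1% and 97.1% of the genes, and MTHFD1 lies above 12.1%. With the poly(A) spikes all points move down by 0.33, and SHMT2 then lies below 0.

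The counts for the neighbouring pathways stand beside 28.1% of all genes tested that passed as higher and 26.9% as lower, or 12.4% and 59.5% with the poly(A) spikes. Of 12 tested genes of serine and glycine transport, use and breakdown, 5 rose and 3 fell, the lower count being near the share over all genes. All 3 that fell also had a probe set that passed as higher. The median log2 change was 0.14. With the mean of all probe sets 4 genes rose and 1 fell, and at an adjusted p of 0.01 the counts were 3 and 2. The poly(A) spikes gave 3 rising and 5 falling and a median below 0. SFXN1, the mitochondrial serine carrier, read 537 and 597 on the mimic arrays, against 279 and 260 on the miR-NC arrays, and rose by 1.07 ± 0.07 (SE, n = 2 per group, limma adjusted p = 6.60e-07) with all 3 of its probe sets. The groups were well apart. DLD, a shared subunit of the glycine cleavage system and of pyruvate dehydrogenase, rose by 0.88 ± 0.05 with all 7 probe sets. The related carrier SFXN3 rose by 0.66 ± 0.07 and the plasma membrane carrier SLC1A4 by 0.47 ± 0.13. SPTLC1, which uses serine to begin sphingolipid synthesis, fell by 0.58 on the log2 scale, though 1 of its 4 probe sets passed as higher. With the mean of their probe sets SFXN3 was at 0.32 and SPTLC1 at -0.28. Without s and x probe sets SFXN3 was at -0.02 and SLC1A4 at 0.23, and neither passed, nor did SLC1A4 with the poly(A) spikes (0.13) or without mimic replicate 2 (0.35).

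Folate genes beyond the 9 changed little in number, 2 of 10 tested rising and 1 falling, but included wide changes. Scaled to the poly(A) spikes, 2 rose and 6 fell. TYMS, which uses a folate carbon unit to make thymidylate, read 1683 and 1835 on the mimic arrays, against 452 and 461 on the miR-NC arrays, and rose by 1.94 ± 0.06 (SE, n = 2 per group, limma adjusted p = 3.33e-09). GGH, the hydrolase that trims stored folate, rose by 0.71 ± 0.07 on 1 probe set. SLC46A1, a proton-coupled folate transporter, read 56.0 and 58.2, against 197 and 172, and fell by 1.69 on the log2 scale with all 3 probe sets (adjusted p = 2.34e-07). On each of these genes the mimic arrays lay entirely to one side of the miR-NC arrays. MTHFD2L, a mitochondrial relative of MTHFD2, was at background on all arrays.

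In the methionine cycle and transsulfuration 2 of 10 tested genes rose and 4 fell, with a median of -0.06. That count lies near the 55.0% of all genes that passed in either direction, and the median is that of all genes. MTRR and MTR, the reductase and the methionine synthase that takes a methyl group from folate, were at 0.67 ± 0.07 and 0.62 ± 0.08. CTH, which makes cysteine from cystathionine, read 38.5 and 48.8 on the mimic arrays, against 115 and 135 on the miR-NC arrays, and fell by 1.52 (log2, SE 0.13, n = 2 per group, limma adjusted p = 3.60e-06). AHCYL2 fell by 1.10, AHCY, which clears adenosylhomocysteine, by 0.31 and the glycine methyltransferase GNMT by 0.46. CTH and GNMT each rest on 1 probe set. MTR was at 0.06 with the mean of its probe sets and MTRR at 0.31 without s and x probe sets, and neither passed there. AHCYL2, of whose 2 probe sets 1 passed, was at -0.63 with their mean. GNMT, close to background, lost its call when mimic replicate 1 (-0.52), mimic replicate 2 (-0.39) or miR-NC replicate 1 (-0.39) was left out. Scaled to the poly(A) spikes, 2 genes of the list rose and 8 fell.

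Of 12 genes of purine ring synthesis, which takes up folate carbon units, and of the steps just before and after it, 7 rose and 2 fell. Their median was 0.15, while with the poly(A) spikes 1 rose and 5 fell and the median lay below 0. ADSS1, which acts on the way to AMP, rose by 1.25 ± 0.11 on 1 probe set. PRPS2, which makes the sugar donor, and PPAT, the first committed enzyme, were at 0.50 ± 0.06 and 0.49 ± 0.06. IMPDH2, which leads to GMP, and PRPS1 fell by 0.40 and 0.38, and PRPS1 was at -0.20 with the mean of its probe sets. With the poly(A) spikes PRPS2 (0.17) and PPAT (0.16) did not pass. Around phosphoglycerate in glycolysis 5 of 7 genes rose and 1 fell, but with the poly(A) spikes 1 rose and 2 fell. ENO2 was at 0.73 ± 0.13 and GAPDH at 0.15 ± 0.03, each on 1 probe set. ENO1 was at 0.43 ± 0.04 and PGK1 at 0.39 ± 0.04, and pyruvate kinase PKM fell by 0.63. With the poly(A) spikes ENO1 (0.10), PGK1 (0.05) and GAPDH (-0.18) did not pass.

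The ATF4 transcript was lower in mimic cells, on a single probe set that carries an x suffix. Of 21 tested genes ATF4 is known to induce, 11 fell and 5 rose, where 26.9% of all genes tested fell and 28.1% rose. The median over these genes and ATF4 was -0.21. The list leaves out the 9 enzymes, several of which ATF4 is also known to induce. Of those 9, 6 passed as higher and 1 as lower, so the count does not cover all genes ATF4 induces. ATF4 read 4438 and 4552 on the mimic arrays, against 5300 and 5416 on the miR-NC arrays, a change of -0.25 ± 0.04 (SE, n = 2 per group, limma adjusted p = 2.07e-04). ASNS, the asparagine synthetase often used as a readout of ATF4, read 1052 and 1088, against 1850 and 1893, a change of -0.81 ± 0.05 (adjusted p = 2.52e-07). Both were lower on each mimic array than on each miR-NC array. TRIB3, a pseudokinase of the stress response, was at -0.90 ± 0.05, the transcription factor ATF5 at -0.95 ± 0.09, the glycine transporter SLC6A9 at -0.92 ± 0.11 and the amino acid transporter SLC7A5 at -0.87 ± 0.05. Of the 6 tested SLC6A9 probe sets 3 passed as lower, and their mean was at -0.41. The cystine transporter SLC7A11 was at -0.26 ± 0.07, with 1 of its probe sets higher and 1 lower, and did not pass with the mean of its probe sets (-0.05), without s and x probe sets (-0.18) or without mimic replicate 1 (-0.21). Those that rose were STC2 (1.06 ± 0.08), CEBPB (0.75 ± 0.07), WARS1 (0.53 ± 0.06), XPOT (0.23 ± 0.08) and DDIT4 (0.21 ± 0.06), and the last 4 were named after their values were seen. STC2 passed with 1 of its 3 probe sets and was at 0.34 with their mean. CEBPB, XPOT and DDIT4 each rest on 1 probe set. XPOT lost its call when mimic replicate 1 (0.25), mimic replicate 2 (0.22) or miR-NC replicate 1 (0.13) was left out, and DDIT4 when mimic replicate 1 (0.19) or mimic replicate 2 (0.22) was. DDIT4 was at 0.11 without miR-NC replicate 1. On the scale of the poly(A) spikes 17 of the 22 with ATF4 fell and 3 rose, where 59.5% of all genes fell, and XPOT was at -0.10 and DDIT4 at -0.13. MYC, another known inducer of serine and folate genes, was at 0.37 ± 0.09 (adjusted p = 0.00621) and did not pass with the poly(A) spikes (0.04), in a fit without a mean-variance trend (adjusted p = 0.0654), without mimic replicate 1 (0.34) or without mimic replicate 2 (0.40). It rests on 1 probe set, and was at 0.19 without miR-NC replicate 1 and at 0.56 without miR-NC replicate 2.

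**Figure D5:**
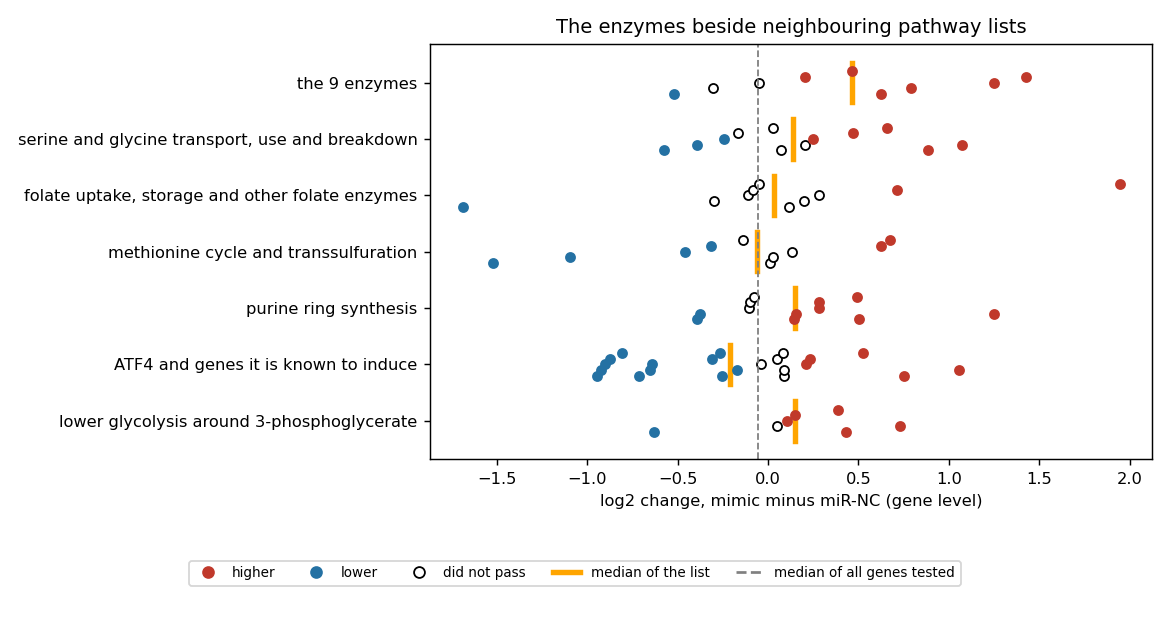
Log2 change, mimic minus miR-NC, of each tested gene of the 9 enzymes and of 6 lists of neighbouring pathways on the deposited scale, with orange bars at list medians and a dashed line at the median of all genes tested (-0.06). The 9 enzymes have a median of 0.46 and the ATF4 list one of -0.21. With the poly(A) spikes all points move down by 0.33, and every gene between 0 and 0.33, SHMT2 and GAPDH among them, and the medians of the transport, folate, purine and glycolysis lists then lie below 0.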

How the data were processed

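Total RNA was labelled with biotin from 2 ug per sample and measured on 4 arrays, per the labels' protocols. The deposited intensity values are per probe set, and the submitters' processing notes name RMA, with no version given in the sources used here. They run to 17329, so they were treated as linear and their log2 was used. The array holds 49395 probe sets, 102 of them controls.

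A gene was read from the probe set with its highest mean, and the test covered the 14122 genes whose mean intensity exceeded 12.0, the 30th percentile over probe sets. Group was the single term of a linear model fitted across genes by limma 3.58.1 (R 4.3.3), with spreads moderated by eBayes along a trend on mean intensity. Tests were two-sided, adjusted over all genes by Benjamini-Hochberg and called at 0.05. The model left 2 residual degrees of freedom, and the number of arrays limits the precision. All probe sets with 1 symbol were fitted the same way. Background is the highest of 20 control probe sets with no human target, 16.8. The fit was also run on simulated data in which few genes changed and no array was shifted. Far more genes passed here, so that run does not cover data like these.

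The members, the lists and the rule for named genes were chosen with earlier results of these data known. The rule takes the 9 members, up to 5 passing genes per list with the largest change, the 3 nearest genes of 5 members, and a few fixed regulators and enzymes. List genes without a probe set of 1 symbol are not analysed here. Groups come from the sample titles. Alternatives were other scalings, filters, choices of probe set, spreads, a pseudocount of 16, a threshold of 0.01, the replicate number as a block, and leaving out each array.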

Additional observations from a re-analysis of the deposited data

How the results depend on the processing

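The count of member genes that passed, 7 on the deposited scale, was 6 or 7 under every alternative run, but the genes behind it changed. On the deposited scale 6 were higher and 1 lower, with the poly(A) spikes 4 and 3, and without a mean-variance trend 5 and 2. Of all genes tested, 28.1% were higher and 26.9% lower on the deposited scale. The shares were 12.4% and 59.5% with the poly(A) spikes, and 25.4% and 26.4% without a trend. PHGDH, PSAT1, MTHFD1L and MTHFD1 kept direction and call in all 18 of their alternatives, PSPH in all 17 of its own (no probe set was left without s and x suffixes). Without single arrays the member genes that passed numbered 6 to 7, member probe sets 15 to 23 and pathway genes 38 to 50. With the poly(A) spikes SHMT2 turned to -0.13, GAPDH to -0.18, XPOT to -0.10 and DDIT4 to -0.13, none passing, and the cause is the shift of every gene by 0.33 in that scaling. SFXN3 turned to -0.0197 without s and x probe sets. SHMT2 also missed the threshold after a further quantile normalization (0.15, limma adjusted p = 0.0565), and the cause was not tested. Without a mean-variance trend its change was the same, 0.20, with an SE of 0.08 instead of 0.06 (limma adjusted p = 0.0865). At a threshold of 0.01 its limma adjusted p was unchanged, 0.0195, and so did not pass. MTHFD1L minus MTHFD1 was 1.45 when all probe sets were averaged and 1.50 without s and x probe sets, SHMT2 minus SHMT1 0.33 when averaged, because other probe sets stand for the genes there. They ranged over 1.23 to 1.39 and over 0.22 to 0.29 without single arrays. DDIT4 also missed the threshold after a further quantile normalization (0.13), XPOT and DDIT4 in the fit without a trend and at 0.01. Except where all probe sets were averaged or s and x sets left out, a gene kept its probe set. The titles give both groups the numbers 1 and 2. Same-numbered arrays deviated together at r = 0.08 across genes, which are not independent replicates. With 2 arrays per group this value cannot tell whether same-numbered arrays were paired, and the titles do not say. With the replicate block 8253 genes passed instead of 7768, and member genes stayed at 7. Signals near background, as of ALDH1L2 and GNMT, limit what can be seen there.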
